A study of Mus musculus with 12 samples.

Results

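Chromatin accessibility at Hif1a and 9 genes of the hypoxia response was followed through 12 ATAC-seq libraries of mouse T cells. ATAC-seq cuts open chromatin with a transposase, so the number of reads counted in a peak measures how accessible that stretch of DNA is. It does not measure transcripts or protein. The genes were Hif1a, Hilpda, Car12, Pfkfb3, Pfkfb4, Hk2, Ldha, Pdk1, Egln3 and Vegfa. A peak was given to one of them when its centre lay inside the protein-coding span of the gene in mm10, or when that span was the nearest within 50 kb. This rule found 293 of the 222105 peaks. Of these, 64 belonged to Hif1a, 44 to Egln3, 42 to Hk2, 37 to Pfkfb3, 27 to Car12, 25 to Vegfa, 17 to Pfkfb4, 16 to Pdk1, 14 to Hilpda and 7 to Ldha. A minimum on read counts kept 262 of the 293 for testing, and 31 were too weak.

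The libraries formed 4 groups of 3. GR cKO cells, which carry a conditional knockout of the glucocorticoid receptor, were cultured with dexamethasone (Dex), a synthetic glucocorticoid, or without it as control. WT cells, labelled C57/B6, were cultured with Dex or as control in the same way. All were naive CD4+ T cells, originally from spleen and dLN, that had been differentiated in culture into Th17Hom cells, the homeostatic Th17 state named in the study's title, and Dex was given for 2 days. Each library came from 6000 sorted cells and 16 cycles of PCR. The labels used here name neither the Cre line and deleted exons of the cKO nor the age and sex of the mice. They do not say whether the 3 libraries of a group are separate mice or cultures, so the p-values cover the variation among these libraries alone, which may be technical.

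Hif1a encodes the oxygen-regulated subunit of the transcription factor HIF-1. In normal oxygen, prolyl hydroxylases such as the product of Egln3 mark this subunit for destruction, while in low oxygen it escapes and switches on genes for glycolysis, pH balance and blood vessel growth. In T cells the same factor is also raised by antigen and cytokine signals, and it is known to favour the Th17 programme. HIF-1 binds a short core of letters, ACGTG or GCGTG, known as the hypoxia response element, whereas the glucocorticoid receptor binds 2 inverted copies of AGAACA separated by a 3-base spacer.

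The 10 genes were chosen when the effect of Dex in WT cells was already known, with peaks at Hif1a, Hilpda and Car12 among the changed ones. Values for Dex in WT are therefore a description and support nothing. Dex in cKO cells shares no library with that comparison and was tested. Comparisons between genotypes, and of the Dex effects between genotypes, reuse WT libraries and are no independent support.

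Total counts ran from 12988437 to 25081591 per library. Values are CPM, read counts set relative to library size after TMM scaling, and differences are log2 fold changes ± SE from edgeR's quasi-likelihood test fitted to 202587 peaks, where a peak with a Benjamini-Hochberg adjusted p under 0.05 is referred to as called. The strongest peak of Nr3c1, the gene for the receptor, ranged from 56.7 to 69.4 CPM in cKO Dex, 51.9 to 60.2 in cKO control, 64.8 to 81.4 in WT Dex and 59.7 to 73.9 in WT control. None of its 24 tested peaks was called between genotypes, so accessibility at this gene did not check the knockout labels. Replicate 3 of cKO Dex stood apart: set against the other libraries of its group, its chi-square over peaks was 3.15 and 3.70 per degree of freedom, while the other 10 replicate pairs gave 2.05 to 2.57. The strongest peaks of the 6 CD4 T cell markers that had one stood at 32.7 to 92.1 CPM and those of 7 Th17 markers at 31.4 to 69.4 CPM. Trac was given no tested peak by the assignment, which used protein-coding spans only, so its accessibility was not read. The strongest peak exceeded 10 CPM for 2 of 5 CD8 T and NK cell markers (up to 14.0 CPM), 1 of 5 B cell markers (Ebf1, 41.1 CPM) and 3 of 5 myeloid markers (up to 47.0 CPM, at Itgam).

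All 10 genes had an accessible start, and none of those peaks was called in any comparison. Start sites and sequences were taken from RefSeq (assembly GRCm38.p6, to which mm10 corresponds), which held entries for all 10. There were 11 such peaks, 2 of them at alternative starts of Pfkfb3. Per kb of peak, the mean over 12 libraries was 37.8 CPM at Pfkfb4, 34.6 at Hilpda, 32.0 at Hif1a, 21.4 at Pdk1, 19.4 at Hk2, 16.6 and 12.01 at the 2 starts of Pfkfb3, 14.2 at Car12, 12.005 at Vegfa, 11.5 at Ldha and 10.9 at Egln3. The ranges of neighbours in this order overlapped over the 12 libraries, and those of Hif1a and Pdk1 only just met.

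The sequences just upstream of 4 of these starts show how differently they are equipped with the HIF core. Each run is the 250 bases before a start, 5′ to 3′ on the strand of the gene, with ACGTG on either strand in capitals (CACGTG holds it on both). Hif1a (chr12:73907617-73907866, plus strand) is the gene of the factor itself, Ldha (chr7:46845554-46845803, plus strand) and Hk2 (chr6:82774455-82774704, minus strand) are glycolytic targets, and Car12 (chr9:66713436-66713685, plus strand) has no core in this window.
Hif1a: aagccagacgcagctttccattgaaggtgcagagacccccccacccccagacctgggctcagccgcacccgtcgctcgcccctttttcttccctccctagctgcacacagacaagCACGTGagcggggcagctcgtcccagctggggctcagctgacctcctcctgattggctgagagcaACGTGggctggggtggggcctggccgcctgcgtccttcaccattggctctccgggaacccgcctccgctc
Ldha: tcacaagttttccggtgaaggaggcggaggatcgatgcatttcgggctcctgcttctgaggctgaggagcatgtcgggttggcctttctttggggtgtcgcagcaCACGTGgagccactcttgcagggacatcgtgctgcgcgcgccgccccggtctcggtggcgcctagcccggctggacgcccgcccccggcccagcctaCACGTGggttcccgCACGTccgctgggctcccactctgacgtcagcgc
Hk2: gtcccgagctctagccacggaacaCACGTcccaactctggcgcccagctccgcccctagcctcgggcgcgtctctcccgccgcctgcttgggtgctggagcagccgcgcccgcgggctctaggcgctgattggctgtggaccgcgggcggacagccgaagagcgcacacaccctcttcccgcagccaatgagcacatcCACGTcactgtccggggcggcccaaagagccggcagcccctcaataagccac
Car12: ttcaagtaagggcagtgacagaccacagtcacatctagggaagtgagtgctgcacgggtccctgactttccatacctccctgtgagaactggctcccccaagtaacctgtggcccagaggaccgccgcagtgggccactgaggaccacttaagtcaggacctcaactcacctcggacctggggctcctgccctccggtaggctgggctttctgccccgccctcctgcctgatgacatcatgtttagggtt

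Over the 300 bases from 250 before to 50 after each start, searched on both strands, ACGTG or GCGTG occurred in 43.8% of 32851 promoter windows of all genes. Of the 13 windows of the 10 genes whose start lay in a tested peak, 11 held it, in 8 genes. The 32851 windows were not limited to accessible starts, so the shares are not like for like. The windows of the Hilpda starts also overlap each other. The Car12 and Vegfa windows held none. The glucocorticoid half-site AGAACA occurred in 19.0% of all windows and in 1 of the 13, that of Pfkfb4, and the full inverted repeat occurred in 3 windows of all genes and in none of the 13. A match is a run of letters and no evidence of binding.

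The start peaks stayed close between Dex and control in either genotype. The log2 fold changes ran from -0.01 to 0.16 in cKO cells, where the smallest adjusted p was 0.877 by edgeR's test, and from -0.00 to 0.23 in WT cells. In each genotype 10 of 11 were above 0 under TMM scaling. With loess offsets, 6 of 11 were above 0 for Dex in cKO and 5 for Dex in WT, where the median turned to -0.00. Peaks of at least 10 CPM shifted the same way across the genome, with 82.1% of 24829 above 0 for Dex in cKO and 70.9% for Dex in WT. In control cells the start peaks were lower in cKO than in WT at 10 of 11, with log2 fold changes from -0.36 to 0.09. The groups did not overlap at 4 (Hilpda, Hif1a, Pdk1 and Car12), against 14.5% of all peaks. That share covers weak peaks and both directions, and the share for peaks of at least 10 CPM is not given, so the 4 are not set apart by it. The smallest adjusted p was 0.404, at Pdk1, whose kinase inhibits pyruvate dehydrogenase in mitochondria. That Pdk1 peak had 36.3, 33.1 and 33.8 CPM in cKO control, against 41.9, 49.1 and 41.3 CPM in WT control, a log2 fold change of -0.36 ± 0.11. All 24829 peaks of at least 10 CPM had a median of -0.12 in that comparison and 18.4% were above 0. The share of counts held by the strongest 10% of peaks was 60.3% ± 1.88 in cKO Dex, 58.9% ± 1.27 in cKO control, 62.6% ± 1.52 in WT Dex and 61.2% ± 0.771 in WT control (SD, n = 3). With that share as a covariate, 8 of 11 were above 0 for Dex in cKO and 5 for Dex in WT, with a WT median of -0.02. With either of these settings the direction of the genotype difference in control cells was lost. Then 7 of 11 start peaks were higher in cKO, with medians of 0.02 (loess) and 0.03 (covariate). The median was -0.13 in the main fit, which had TMM scaling and no covariate.

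**Figure D1:**
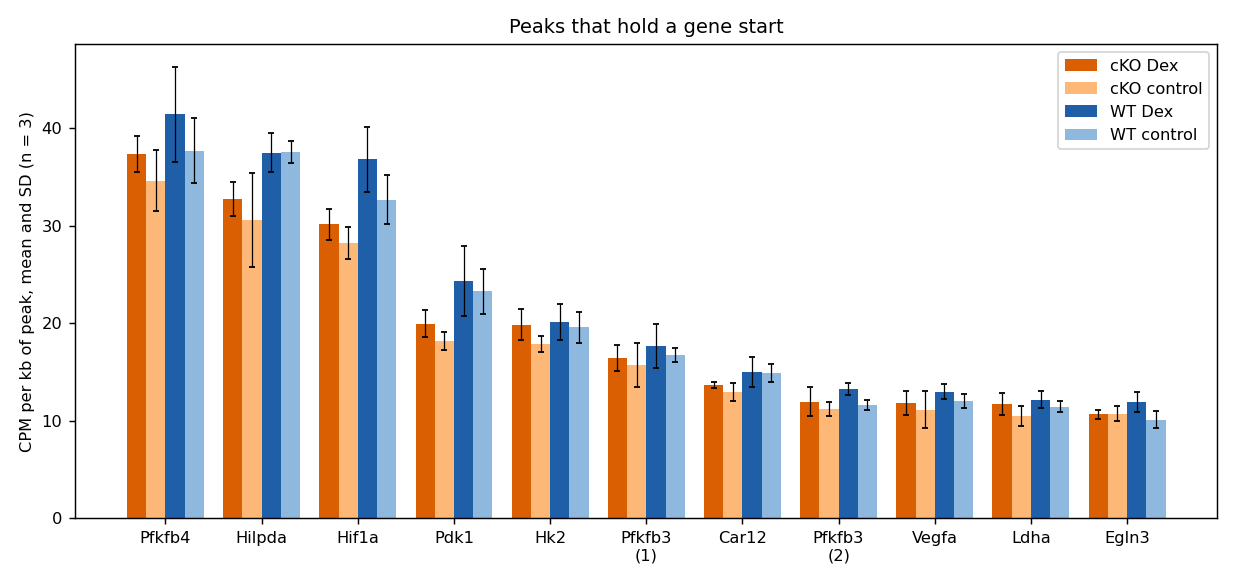
Accessibility of the 11 peaks that hold a gene start, in CPM per kb of peak, as the mean (bars) and SD (error bars) of 3 libraries per group; Pfkfb3 (1) and (2) are its 2 start peaks. Pfkfb4, Hilpda and Hif1a stand highest, and within a gene the 4 groups lie close together.

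Hif1a had 3 peaks upstream of its start at which WT cells were more accessible with Dex, while no Hif1a peak was called for Dex in cKO cells. The Hif1a span of the distance rule begins at chr12:73901324, upstream of the start used here (chr12:73907867), so distances to span and start differ. The strongest change lay at chr12:73889184-73890618, centred at -18.0 kb from the start. This peak had 9.61, 9.03 and 9.76 CPM in cKO Dex, and 8.76, 9.33 and 9.23 CPM in cKO control. It had 19.1, 14.6 and 15.6 CPM in WT Dex, and 9.24, 6.36 and 7.87 CPM in WT control. The 3 WT Dex libraries stood above the other 9, which lay close together. The log2 fold change was 0.05 ± 0.15 for Dex in cKO (adjusted p = 0.979, edgeR) and 1.08 ± 0.14 for Dex in WT, or 2.12-fold. WT responded to Dex more than cKO by a log2 of 1.03 ± 0.21, with an adjusted p of 0.0242 by edgeR's test of the interaction. That call was lost without any one of 8 libraries, namely WT Dex replicate 1, WT control replicates 2 and 3, each cKO control library, and cKO Dex replicates 1 and 2. The log2 difference was then 0.90 to 1.06 and the adjusted p 0.0505 to 0.250. With 1 peak called of 262, against 0.0276% of all peaks, it was the only interaction call at the 10 genes.

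A neighbouring peak at chr12:73887565-73889001, only 182 bases away and centred at -19.6 kb, was far stronger. It had 70.4, 68.1 and 60.8 CPM in cKO Dex and 55.8, 66.3 and 59.9 CPM in cKO control, against 94.3, 87.8 and 77.6 CPM in WT Dex and 56.8, 60.3 and 57.2 CPM in WT control. Each WT Dex library was above every other library. The log2 fold change was 0.13 ± 0.10 for Dex in cKO (adjusted p = 0.900, edgeR) and 0.57 ± 0.10 for Dex in WT, or 1.49-fold.

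A further peak at chr12:73879652-73880895, centred at -27.6 kb and 6669 bases beyond the strong one, had 19.2, 22.6 and 19.7 CPM in cKO Dex and 15.1, 19.8 and 17.3 CPM in cKO control. It had 31.1, 28.9 and 24.8 CPM in WT Dex and 18.6, 17.1 and 17.0 CPM in WT control. Again the WT Dex libraries were the highest of the 12. The log2 fold change was 0.23 ± 0.12 for Dex in cKO (adjusted p = 0.859, edgeR) and 0.69 ± 0.12 for Dex in WT, or 1.61-fold. The 3 peaks span 10.967 kb, a stretch that holds 5 tested peaks, and their centres lie 11423 to 21051 bases from the Hif1a span. The next protein-coding gene, Snapc1, lies beyond Hif1a at 74556 to 84184 bases from their centres. In all 3, replicates 2 and 3 of WT Dex were below replicate 1, and WT Dex replicate 3 had the smallest share of counts in strong peaks of its group (60.8%, against a highest of 63.5%). With that share as a covariate, the log2 fold changes for Dex in WT were 1.10 at -18.0 kb, 0.47 at -19.6 kb and 0.58 at -27.6 kb.

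**Figure D2:**
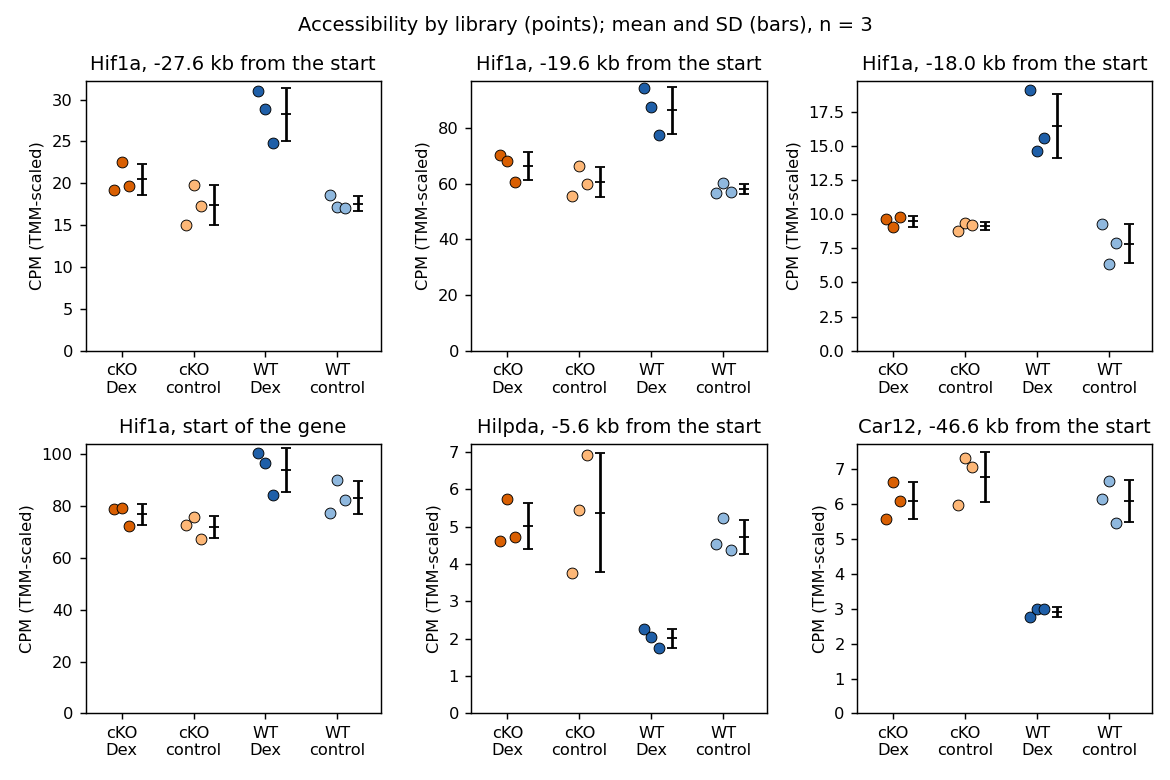
Accessibility in CPM for each library (points) with mean and SD of 3 (bars), by group, at the 3 upstream Hif1a peaks, the Hif1a start peak, and the Hilpda and Car12 peaks. WT Dex stands above the other groups at the upstream Hif1a peaks (14.6 to 19.1 CPM at -18.0 kb) and below them at Hilpda and Car12 (2.99 CPM at most).

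The start peak of Hif1a at chr12:73907295-73909841 was its strongest. It had 78.9, 79.3 and 72.2 CPM in cKO Dex, 72.8, 75.7 and 67.4 CPM in cKO control, 101, 96.5 and 84.2 CPM in WT Dex and 77.3, 90.1 and 82.2 CPM in WT control. WT Dex and WT control overlapped, and the log2 fold change was 0.09 ± 0.10 for Dex in cKO (adjusted p = 0.929, edgeR) and 0.17 ± 0.09 for Dex in WT. Over its 58 tested peaks, 35 had a positive log2 fold change for Dex in cKO, with a median of 0.06, and 41 for Dex in WT, with a median of 0.19. The medians of all tested peaks were -0.004 and -0.002.

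**Figure D3:**
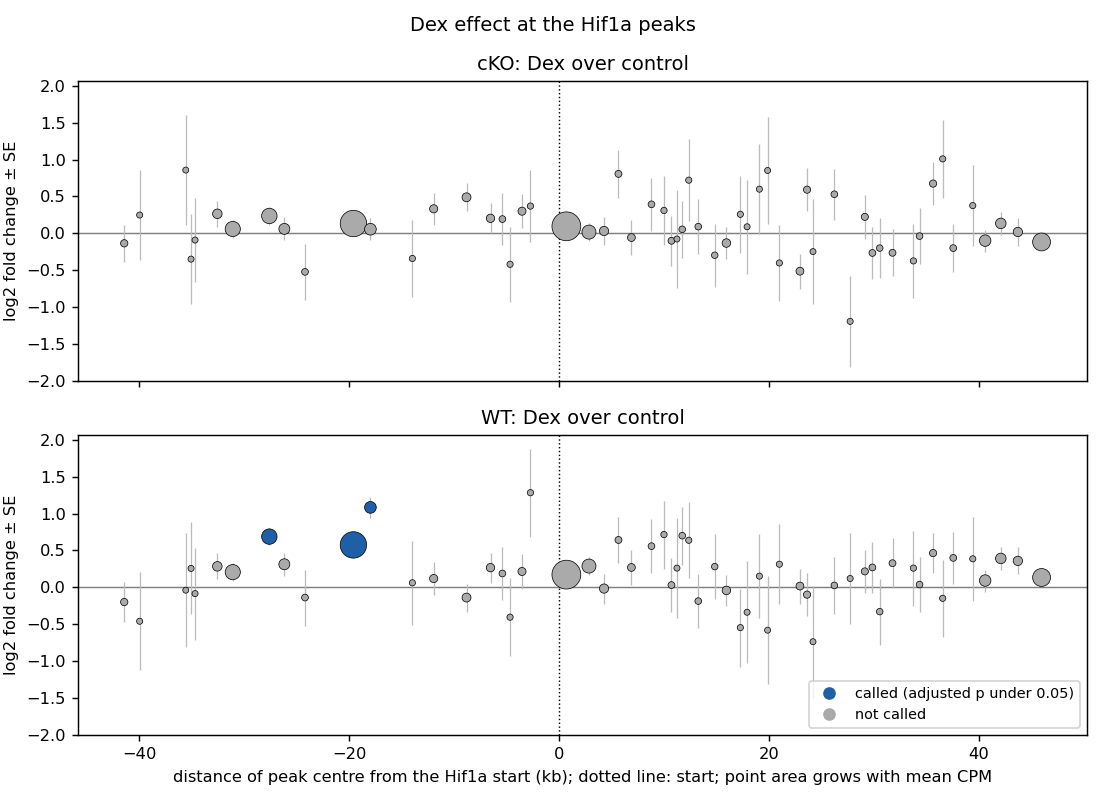
Log2 fold change ± SE for Dex over control at the 58 tested Hif1a peaks against the distance of the peak centre from the start in kb, for cKO (upper) and WT (lower); point area grows with mean CPM. The 3 called peaks (filled blue) lie between -27.6 and -18.0 kb in WT, and no peak is called in cKO.

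Summed over all Hif1a peaks, accessibility was 343.8, 355.6 and 346.9 CPM in cKO Dex and 338.8, 351.2 and 334.3 CPM in cKO control. It was 413.8, 393.8 and 389.1 CPM in WT Dex and 326.1, 336.5 and 330.2 CPM in WT control, so WT Dex stood apart from the other 3 groups. These sums were scaled and tested over 17357 genes. The log2 fold change was 0.03 ± 0.03 for Dex in cKO (adjusted p = 0.828, edgeR) and 0.27 ± 0.03 for Dex in WT. Of the 10 genes, 0 sums were called for Dex in cKO, against 0.00576% of all genes, and 1 for Dex in WT, against 2.64%. Without cKO Dex replicate 3, 1.72% of all gene sums were called for Dex in cKO and still none of the 10 (smallest adjusted p = 0.393, edgeR). The sum responded to Dex more in WT than in cKO, by a log2 of 0.24 ± 0.05 (adjusted p = 0.0179, edgeR's interaction test). Hif1a was the only one of the 10 called in that comparison, against 0.219% of all genes. This call too was lost without WT Dex replicate 1, WT control replicates 1 or 3, cKO control replicate 2 or cKO Dex replicate 1, with log2 differences of 0.21 to 0.24 and adjusted p of 0.0517 to 0.135. On the scale of single peaks, the 3 called peaks carried 47.7 of the 81.5 CPM by which WT Dex exceeded WT control, or 58.6%. On that scale cKO Dex exceeded cKO control by 19.4 CPM, of which 9.26 lay in the same 3 peaks. These peaks were picked by their call for Dex in WT.

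Between genotypes, Hif1a accessibility under Dex was lower in cKO than in WT at 2 called peaks. One was the peak at -18.0 kb, with a log2 fold change of -0.79 ± 0.14. The other lay at chr12:73952631-73955052, centred at 46.0 kb from the start and 6287 bases past the end of the gene, with Snapc1 10616 bases away. It had 21.4, 28.1 and 23.8 CPM in cKO Dex, against 36.2, 33.9 and 34.3 CPM in WT Dex, a log2 fold change of -0.51 ± 0.11. It was not called for Dex in WT, where the log2 fold change was 0.13. The call was lost without WT Dex replicate 1 or 2 or cKO Dex replicate 1 (log2 fold changes of -0.62 to -0.39 over all alternatives), and that at -18.0 kb without WT Dex replicate 1 (-0.68). Over the 10 genes, 4 of 262 peaks were called under Dex, against 0.171% of all peaks. The sum over all Hif1a peaks was lower in cKO Dex than in WT Dex by a log2 fold change of -0.19 ± 0.03, the 1 sum of the 10 called there, against 2.3% of all genes. In control cells the log2 fold change at -18.0 kb was 0.23 (adjusted p = 0.742, edgeR).

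Hilpda and Car12 went the other way, each at 1 weak distal peak where WT Dex was lowest. Hilpda encodes a small lipid droplet protein that blocks the lipase ATGL and is induced by hypoxia. Its peak at chr6:29266612-29267256, centred at -5.55 kb, had 4.60, 5.73 and 4.72 CPM in cKO Dex and 3.75, 5.44 and 6.92 CPM in cKO control. It had 2.25, 2.05 and 1.75 CPM in WT Dex and 4.54, 5.23 and 4.38 CPM in WT control. All 3 WT Dex libraries lay under every other library. The log2 fold change was -0.09 ± 0.20 for Dex in cKO (adjusted p = 0.971, edgeR) and -1.23 ± 0.22 for Dex in WT, a level 0.427 times that of WT control. Fam71f2 is the next nearest gene, 10594 bases away. The other 12 tested Hilpda peaks were not called in any comparison, among them the strongest, at chr6:29245297-29247499, centred at -26.1 kb, with a mean of 45.6 CPM. The sum over the gene was 145.9 ± 5.53 CPM in cKO Dex, 147.1 ± 14.6 in cKO control, 144.3 ± 5.37 in WT Dex and 144.9 ± 3.26 in WT control (SD, n = 3).

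Car12 encodes a membrane carbonic anhydrase, an enzyme that hydrates carbon dioxide outside the cell. Its peak at chr9:66666728-66667447 lies far upstream, at -46.6 kb, with the next gene, Usp3, 73939 bases away. It had 5.57, 6.63 and 6.08 CPM in cKO Dex and 5.96, 7.31 and 7.05 CPM in cKO control, against 2.75, 2.99 and 2.98 CPM in WT Dex and 6.13, 6.65 and 5.45 CPM in WT control. The WT Dex libraries were again the lowest of the 12. The log2 fold change was -0.15 ± 0.17 for Dex in cKO (adjusted p = 0.935, edgeR) and -1.06 ± 0.19 for Dex in WT, or 0.481 times WT control. Sums over the gene were 118.4 ± 2.77 CPM in cKO Dex, 118.5 ± 3.84 in cKO control, 113.6 ± 5.40 in WT Dex and 118.0 ± 2.305 in WT control (SD, n = 3).

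At both peaks the genotypes differed in the same direction under Dex. cKO Dex exceeded WT Dex by a log2 fold change of 1.32 ± 0.22 at Hilpda and 1.06 ± 0.19 at Car12, and both were called. The test of the difference between the Dex effects was not passed at either one, at -1.14 ± 0.30 for Hilpda (adjusted p = 0.314, edgeR) and -0.90 ± 0.25 for Car12 (adjusted p = 0.424, edgeR). Across the 12 libraries the log2 levels of these peaks followed one another with a Pearson r of 0.958, and they ran against the Hif1a peak at -18.0 kb with an r of -0.825 for Hilpda and -0.894 for Car12. These are descriptions, since the peaks were known to move with Dex in WT and the libraries share that treatment.

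Egln3, whose product is a HIF prolyl hydroxylase that hypoxia induces, had no called peak among 40 in the main fit. With the strong-peak share as a covariate, the peak at chr12:54143655-54144054 was called lower for Dex in WT and higher in cKO Dex than in WT Dex. For these comparisons the main fit gave log2 fold changes of -0.49 ± 0.17 and 0.51 ± 0.17. The covariate fit called 1.11% and 0.885% of all peaks in them, against 0.533% and 0.171% in the main fit. The Egln3 peak with the smallest p for Dex in WT, at chr12:54162608-54163184, had 6.78, 6.03 and 4.09 CPM in cKO Dex, 5.42, 5.91 and 6.47 in cKO control, 8.64, 7.81 and 8.39 in WT Dex and 4.62, 5.77 and 6.15 in WT control. WT Dex was again highest, with a log2 fold change of 0.57 ± 0.17 for Dex in WT and -0.06 ± 0.17 for Dex in cKO (adjusted p = 0.981, edgeR). The sum over the Egln3 peaks was 241.7, 253.1 and 248.4 CPM in cKO control, against 212.4, 223.8 and 229.4 CPM in WT control. The log2 fold change of 0.16 ± 0.04 missed the threshold (adjusted p = 0.0770, edgeR). None of the 10 sums was called in that comparison, against 0.213% of all genes. The Egln3 sum passed with DESeq2 (adjusted p = 0.0181), in a fit that called 0.893% of all gene sums. Without cKO Dex replicate 3 it passed as well (adjusted p = 0.0413, edgeR), where 0.864% of all sums were called.

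The glycolytic genes showed no called peak in any of the 5 comparisons in the main fit. Hk2 encodes hexokinase, the first enzyme of glycolysis, Pfkfb3 and Pfkfb4 encode enzymes that set the level of fructose 2,6-bisphosphate, Ldha encodes a lactate dehydrogenase subunit and Pdk1 a pyruvate dehydrogenase kinase. Of Hk2's 38 peaks, 10 had an unadjusted p under 0.05 between control groups, against 7.68% of all peaks, and 8 of them were higher in cKO control than in WT control, but the smallest adjusted p was 0.479 by edgeR. Of those 10, the strongest was one of the 2 lower ones, at chr6:82769492-82770469, with means of 14.7 CPM in cKO control and 18.9 CPM in WT control. The 8 higher ones averaged 3.65 CPM at most in cKO control. A Pfkfb3 peak at chr2:11540159-11541104 had means of 24.9 ± 2.54 CPM in cKO Dex and 20.1 ± 2.80 in WT Dex (SD, n = 3), groups that overlapped. Its log2 fold change of 0.31 ± 0.12 was not called (adjusted p = 0.412, edgeR). It was called with total counts, loess offsets and the strong-peak share as a covariate, at 0.38 to 0.49 (adjusted p = 0.00603 to 0.0420, edgeR). These settings called 0.427%, 0.496% and 0.885% of all peaks in that comparison, against 0.171% in the main fit.

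Among these genes the peak with the smallest p for Dex in WT was a modest or weak one. At Pdk1 it was chr2:71941063-71942015, with 28.9, 30.6 and 26.5 CPM in cKO Dex, 24.7, 27.8 and 26.9 in cKO control, 31.9, 37.5 and 29.9 in WT Dex and 26.6, 26.95 and 29.7 in WT control. Its log2 fold change was 0.12 ± 0.11 for Dex in cKO and 0.25 ± 0.11 for Dex in WT, and the groups lay close together. At Pfkfb3 it was chr2:11535405-11535971, with log2 fold changes of 0.26 ± 0.15 in cKO and 0.36 ± 0.16 in WT. The corresponding peaks of Hk2 (chr6:82729128-82729553, WT log2 fold change -0.92 ± 0.46), Ldha (chr7:46837348-46837570, 0.63 ± 0.54) and Pfkfb4 (chr9:109026612-109026977, -1.03 ± 0.60) stayed at or under 1.36 CPM in every library. Strongest peaks other than start peaks were chr7:46833205-46834474 for Ldha, at -11.97 kb with a mean of 47.5 CPM, and chr2:11429318-11430300 for Pfkfb3, at 72.3 kb from its nearest start with a mean of 53.4 CPM. Their log2 fold changes were 0.03 ± 0.10 and 0.14 ± 0.10 for Dex in cKO, and 0.04 ± 0.10 and 0.12 ± 0.10 for Dex in WT.

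Vegfa, the gene of the main growth factor for blood vessels, had no called peak among 24. Its peak with the smallest p for Dex in WT, chr17:46048179-46048451, had 1.49, 0.299 and 1.21 CPM in cKO Dex, 0.715, 1.09 and 0.833 in cKO control, 0.626, 0.665 and 0.338 in WT Dex and 1.59, 1.91 and 1.31 in WT control. The log2 fold change of -1.55 ± 0.45 for Dex in WT was not called.

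Over all 262 peaks, none was called for Dex in cKO, against 0.00296% of all tested peaks, and 14 had an unadjusted p under 0.05 (5.34%, against 5.84% of all peaks). The smallest adjusted p was 0.838 in edgeR, and DESeq2 and limma-voom called none either. The low share over all peaks rested on cKO Dex replicate 3. Without it 0.165% of all peaks were called, 34 higher and 301 lower, and again none of the 262 (smallest adjusted p = 0.218, edgeR). The 5 peaks called for Dex in WT then had log2 fold changes for Dex in cKO of 0.26, 0.19 and 0.03 at Hif1a, from the farthest to the nearest, -0.05 at Hilpda and -0.15 at Car12. For Dex in WT 5 were called, against 0.533% of all peaks, 3 of them higher, against 0.42%, and 2 lower, against 0.113%. The background of lower calls depended on the scaling and the model. It was 0.353% with total counts, 0.433% with loess offsets and 0.579% with the strong-peak share as a covariate. In these settings 59.0%, 59.1% and 47.7% of called peaks were higher. Medians over the 262 were -0.005 for Dex in cKO and -0.001 for Dex in WT, beside -0.004 and -0.002 over all peaks. Between control groups none was called, against 0.0104%, while 25 had an unadjusted p under 0.05 (9.54%, against 7.68% of all peaks), and DESeq2 called 1, the Pdk1 start peak, in a fit that called 0.183% of all peaks. The last peaks inside the 50 kb limit, 2 peaks at Hk2 49186 and 49759 bases away, had log2 fold changes of -0.15 and -0.08 for Dex in WT. The first ones outside had -0.22 at Hif1a, 50313 bases away, and -0.63 at Car12, 50461 bases away.

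**Figure D4:**
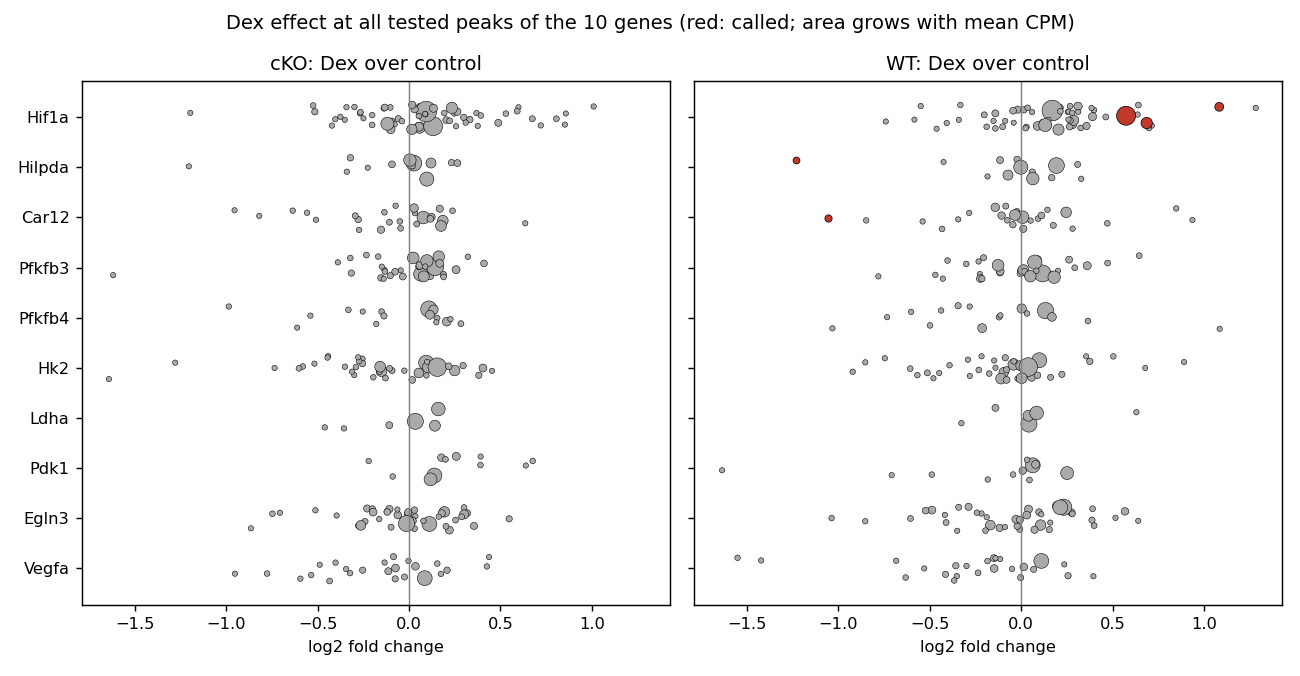
Log2 fold change for Dex over control at each of the 262 tested peaks, by gene, for cKO (left) and WT (right); red points are called and point area grows with mean CPM. In WT 3 Hif1a peaks stand to the right and 1 peak each of Hilpda and Car12 to the left, while cKO has no called peak.

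**Figure D5:**
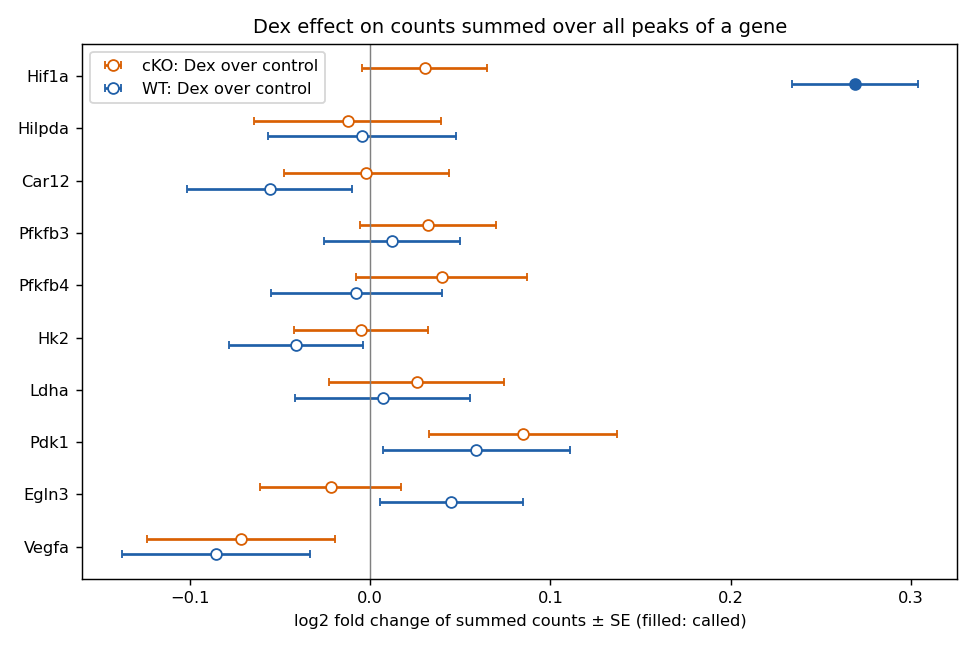
Log2 fold change ± SE for Dex over control of the counts summed over all peaks of a gene, for cKO (orange) and WT (blue); a filled point is called. Hif1a in WT, at 0.27, lies apart, and the other sums lie between -0.09 and 0.08.

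The wider pathway was read from 3 lists chosen from general knowledge. Among 16 genes of HIF subunits and oxygen sensing, 16 glycolytic HIF targets and 20 other HIF targets, no gene had a called peak for Dex in cKO, for the interaction or between control groups, where 0.0231%, 0.265% and 0.0346% of all genes had one. For Dex in WT, 1 gene of the first list was higher and 1 lower, none of the glycolytic list was called, and 1 gene of the third was higher and 1 lower, against 4.13% of 17347 genes with a called peak in either direction. Hif3a, which encodes a HIF subunit whose short forms inhibit the others, had a peak at chr7:17057819-17061589 with means of 44.9 ± 3.30 CPM in cKO Dex, 38.2 ± 3.77 in cKO control, 52.6 ± 3.99 in WT Dex and 39.8 ± 2.65 in WT control (SD, n = 3). Its log2 fold change was 0.40 ± 0.10 for Dex in WT. Mxi1, a MAX-binding antagonist of MYC, had a peak at chr19:53279516-53280636 with 26.2 ± 0.962 CPM in cKO Dex, 21.6 ± 1.86 in cKO control, 29.8 ± 3.75 in WT Dex and 20.5 ± 2.37 in WT control, and a log2 fold change of 0.54 ± 0.12. Both levels were also higher on average in cKO Dex than in cKO control, with log2 fold changes of 0.23 ± 0.10 and 0.27 ± 0.12 that were not called (adjusted p = 0.838 for each, edgeR).

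Adm, the gene of the vasodilator adrenomedullin, was lower at chr7:110659572-110660062, with 6.74 ± 1.22 CPM in cKO Dex, 6.48 ± 0.790 in cKO control, 4.39 ± 0.716 in WT Dex and 7.44 ± 0.953 in WT control (SD, n = 3), and a log2 fold change of -0.77 ± 0.18. Arnt, which encodes the partner subunit of HIF-1, was called lower at chr3:95438727-95438934 and, under Dex, higher in cKO than in WT, as the 1 gene of the 3 lists with a called peak there, against 1.4% of all genes. That peak did not exceed 1.09 CPM in any library and was at 0 CPM in WT Dex replicate 3, so its fitted change is unstable. Of 20 refits, the call for Dex in WT held in 10 for Hif3a (adjusted p up to 0.353), 16 for Mxi1 (up to 0.138), 17 for Adm (up to 0.234) and 13 for Arnt (up to 0.244), by the test of each refit. The Hif3a call was lost without cKO Dex replicate 1 or cKO control replicates 1 or 3. Leaving out WT Dex replicates 1 or 2 or any WT control library also lost it. So did DESeq2 size factors and the fit with no count filter. The Mxi1 call was lost without WT Dex replicates 1 or 2 or WT control replicates 1 or 2, and that of Adm without WT Dex replicate 1 or WT control replicates 2 or 3. The Arnt call was lost without any one WT Dex library or WT control replicates 2 or 3, and also with DESeq2 and with limma-voom.

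The peaks most like the Hif1a peak at -18.0 kb were found by the Pearson r of log2 CPM over the 12 libraries among 38473 peaks of at least 5 CPM, 1 per other gene. They were nearest to Plaur (r = 0.960), Phc3 (0.951), Popdc2 (0.950), Srp9 (0.949) and S1pr1 (0.947). The Plaur peak at chr7:24457194-24458523 averaged 59.6 CPM in cKO Dex, 54.7 in cKO control, 85.5 in WT Dex and 50.7 in WT control. The Popdc2 peak at chr16:38373995-38375677 averaged 5.46 CPM in cKO Dex, 5.83 in cKO control, 10.7 in WT Dex and 4.44 in WT control. Both were highest in WT Dex, as was the Hif1a peak they were matched to.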

How the data were processed

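The values analysed are raw counts, as deposited by the authors in 1 table of 222105 jointly defined peaks by 12 libraries, with no scaling per the file headers. The submitters' processing notes name mm10 as the build and list featureCounts 2.1.1, Genrich 0.6.1, deepTools 3.5.6, SAMtools 1.3, Picard 2.18.27, Bowtie2 2.3.5 and Trimmomatic 0.39. How each was set, whether reads were shifted for the transposase cut and whether peaks came from pooled libraries is not stated in these sources. A joint peak set can favour sites that are open in some groups.

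Libraries were grouped by their own labels. Replicates differed by more than sampling noise (chi-square per degree of freedom 2.05 to 3.70 over 12 pairs), and each was kept as its own sample. Peaks passing filterByExpr (minimum count 10, minimum total count 15) in edgeR 4.0.16 under R 4.3.3 were scaled by TMM and fitted with the robust quasi-likelihood F-test, 1 coefficient per group, 8 residual degrees of freedom. This kept 202587 peaks and left out 19518. Tests were two-sided, adjusted by Benjamini-Hochberg over all tested peaks, and called at an adjusted p under 0.05. The SE is the log2 fold change divided by the square root of F. Counts summed over all peaks of a gene were fitted in the same way. The median biological coefficient of variation was 24.8%. No molecular identifiers were used, so duplicate PCR copies could not be told with certainty from separate molecules. Whether duplicates were removed before counting is not stated in the processing notes. The steps were tested on simulated data.

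The 10 genes, the pathway and marker lists, the tests and the alternatives were chosen with earlier results of these data known. Named peaks were each gene's strongest, every called one and, where none was called, the one with the smallest p for Dex in WT. The Hk2 peak between control groups was named after its values were seen. Alternatives were DESeq2 1.42.0, limma-voom in limma 3.58.1, DESeq2 size factors, total counts, loess offsets, no count filter, the replicate number as a block, the share of counts in strong peaks as a covariate, a 10 kb limit on distance, and leaving out each library.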

Additional observations from a re-analysis of the deposited data

Results flagged for a closer look

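The Dex effect differed between genotypes, by the test of the interaction, at the Hif1a peak centred at -18.0 kb, where it was larger in WT than in cKO by a log2 of 1.03. The sum over all Hif1a peaks is listed for the same reason, with a difference of 0.24. Both use the WT libraries in which the Dex effect was already known. For this listing, groups of 3 were not searched for single outlying values. The chi-square between replicates and the refits without each library are given apart from it.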

How the results depend on the processing

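The 5 peaks called for Dex in WT were called in all 20 alternatives that refit the data, as was the Hif1a sum. With loess offsets or the strong-peak share as a covariate, the medians over start peaks changed sign between control groups and for Dex in WT. No called result reversed. With a limit of 10 kb instead of 50 kb, 1 peak (Hilpda) was left for Dex in WT, 0 for the interaction and 2 under Dex between genotypes, since the others lie farther away. The count of interaction peaks was 2 with total counts, loess offsets or the strong-peak share as a covariate, all adding the Hif1a peak at -19.6 kb. These settings called 0.0548%, 0.0953% and 0.122% of all peaks, against 0.0276% in the main fit. The count was 0 to 1 when leaving out a library. The count of interaction sums was also 0 to 1 without a library. Between control groups, DESeq2 called 1 peak (Pdk1). For the sums, 1 (Egln3) was called with DESeq2 and with the replicate block (adjusted p = 0.00982, edgeR), and 0 to 1 without a library. DESeq2 and the replicate block called 0.893% and 1.68% of all gene sums, against 0.213% in the main fit. Under Dex between genotypes, total counts called 7 peaks, 3 higher and 4 lower, against 2 and 2. Leaving out a library called 2 to 6, with 2 without WT Dex replicate 1 and 6 without WT Dex replicate 3. The share of all peaks called moved too, to 0.427% with total counts, 0.08% without WT Dex replicate 1 and 0.264% without WT Dex replicate 3, against 0.171%. Same-numbered libraries deviated from their group means with correlations of -0.188 to 0.258, 3 of 18 above 0.1, so the numbers were not taken to pair samples. The best match had the same number in 18 of 36 cases, where 12 would be expected, a hint from the data and not from the design. With the replicate block, 5 member peaks were called for Dex in WT, 0 for Dex in cKO, 1 for the interaction, 0 between control groups and 6 under Dex, while the counts over all peaks were 1736, 7, 99, 162 and 1012, against 1080, 6, 56, 21 and 346. The number of listed oxygen-sensing and other HIF target genes with a called peak for Dex in WT ran from 0 to 4. At this depth the weak peaks named at Hk2, Ldha and Pfkfb4 had SEs of 0.46 to 0.60, and log2 changes of -0.92 and -1.03 were not called there.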
